A study of Homo sapiens with 6 samples.

Results

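The enzymes described here make and interconvert asparagine, aspartate, proline, glutamate and glutamine, and were taken as every probe set whose single gene symbol in the platform annotation was ASNS, PYCR1, ALDH18A1, PRODH, GPT2, GOT1, GOT2 or GLUL. The rule found 12 of the 54675 probe sets on the array, for 7 of the 8 genes, against 19775 genes with a single-symbol probe set in the whole table. GPT2, which encodes the mitochondrial alanine aminotransferase, was not analysed here. The study treated IMR32, an established human neuroblastoma cell line, with 118 µM teriflunomide for 24 h, or with 0.1% DMSO for the same time as the control, starting 12 h after the cells were seeded. Teriflunomide inhibits DHODH, the mitochondrial enzyme that makes orotate for pyrimidine synthesis. Each group had 3 arrays of total RNA, 6 in all, and both groups came from this 1 line. The labels call the 3 arrays biological replicates without saying whether they were separate cultures, so the tests rest on the spread among arrays, and that spread may be technical. Whether the teriflunomide wells held DMSO too was not given in the sources used here.

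These enzymes sit on a common route. Asparagine synthetase (ASNS) moves the amide of glutamine onto aspartate, and the aspartate aminotransferases GOT1, in the cytosol, and GOT2, in mitochondria, interconvert aspartate and glutamate. Proline is built from glutamate by ALDH18A1 and PYCR1 and broken down first by PRODH, which sits on the mitochondrial inner membrane. GLUL, glutamine synthetase, makes glutamine from glutamate and ammonia. Transcription of ASNS is a classical readout of amino acid shortage, through a short element in its promoter that binds ATF4 and C/EBP proteins. Aspartate also supplies atoms of the pyrimidine ring, upstream of DHODH.

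The upstream promoter sequences of ASNS, GOT1, GOT2 and ALDH18A1 are shown because they are the members that moved most, that moved the other way, or, for GOT2, the mitochondrial counterpart of a member that rose. They come from RefSeq on GRCh38.p14, which held a promoter for 5 of the 8 members. PYCR1, PRODH and GPT2 had none in the set used, so their promoters were not searched. Each is the 250 bases before the annotated start, 5′ to 3′ on the strand of the gene, and all 4 genes lie on the minus strand. The windows are chr7:97872409-97872658 for ASNS, chr10:99430625-99430874 for GOT1, chr16:58734317-58734566 for GOT2 and chr10:95656712-95656961 for ALDH18A1. Capitals mark matches to TGATGNAA, the core of the composite C/EBP and ATF element, to its ASNS form TGATGAAAC, or to CACGTG, the E-box core bound by MYC family proteins.
ASNS: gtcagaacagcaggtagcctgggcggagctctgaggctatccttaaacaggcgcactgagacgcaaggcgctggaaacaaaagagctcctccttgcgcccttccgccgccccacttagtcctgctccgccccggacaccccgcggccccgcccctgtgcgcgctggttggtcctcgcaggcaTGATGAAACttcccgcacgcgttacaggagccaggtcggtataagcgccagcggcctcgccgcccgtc
GOT1: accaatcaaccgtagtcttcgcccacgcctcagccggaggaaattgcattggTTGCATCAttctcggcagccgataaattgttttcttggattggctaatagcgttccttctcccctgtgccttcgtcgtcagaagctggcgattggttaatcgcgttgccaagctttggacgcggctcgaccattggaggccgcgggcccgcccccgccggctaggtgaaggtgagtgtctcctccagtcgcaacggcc
GOT2: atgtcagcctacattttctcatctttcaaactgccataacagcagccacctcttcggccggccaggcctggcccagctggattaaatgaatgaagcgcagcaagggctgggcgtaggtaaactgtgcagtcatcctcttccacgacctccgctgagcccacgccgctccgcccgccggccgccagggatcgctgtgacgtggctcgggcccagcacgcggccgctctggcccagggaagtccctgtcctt
ALDH18A1: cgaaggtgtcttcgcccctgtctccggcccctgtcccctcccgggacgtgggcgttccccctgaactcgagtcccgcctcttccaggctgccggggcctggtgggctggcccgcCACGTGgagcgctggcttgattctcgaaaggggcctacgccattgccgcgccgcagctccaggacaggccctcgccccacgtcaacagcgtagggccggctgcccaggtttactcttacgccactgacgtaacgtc

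Searched on both strands over the 300 bases that include 50 after the start, TGATGNAA was found once in ASNS, 68 bases upstream of the start at chr7:97872469-97872476, and once in GOT1, 198 bases upstream at chr10:99430815-99430822, where it lies on the other strand and reads TTGCATCA. The longer ASNS form TGATGAAAC overlaps the same ASNS match. Of 35116 promoters of this length, 3.62% held TGATGNAA, 0.225% held TGATGAAAC and 7.26% held CACGTG. The second annotated start of ASNS, and the promoters of GOT2, ALDH18A1 and both annotated starts of GLUL, had no match to TGATGNAA within these windows. ALDH18A1 held CACGTG 136 bases upstream of its start, at chr10:95656842-95656847. These are matches of letters, not measured binding sites.

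The values are log2 intensities, on which 1 unit is a doubling, made by the authors with GCRMA, a method that subtracts a background modelled from probe sequence and brings the arrays to a common distribution. A shift shared by all genes would not show. The lowest value was 2.18 on every array and held 33.9% to 34.3% of the probe sets, and arrays give no read depth, so the number of arrays limits precision. Of 10 markers of the sympathoadrenal lineage with a probe set, 7 were above log2 5 in both groups, among them MYCN, GATA3, PHOX2A and ISL1. TH and STMN2 lay at or next to the lowest value and DBH was dim. Blood and endothelial markers lay at or next to the lowest value in both groups, and so did KRT5 and CDH1, while EPCAM was dim. Of 4 fibroblast markers, DCN lay next to the lowest value while COL1A1, COL3A1 and LUM were bright in both groups. The summed log2 level of the sympathoadrenal markers was 83.4 to 84.3 in teriflunomide cells and 84.4 to 86.1 in DMSO cells. These markers did not move together. CHGA averaged 11.27 in teriflunomide cells and 12.73 in DMSO cells, MYCN 14.69 and 15.11, and the dim DBH 2.47 and 3.41. PHOX2A averaged 12.69 in teriflunomide cells and 11.93 in DMSO cells, GATA3 13.58 and 13.23, ISL1 10.47 and 10.25, and CHGB 7.46 and 7.16. HAND2 was nearly level, at 6.92 and 6.96. The summed level of the 4 fibroblast markers was 36.6 to 37.0 in teriflunomide cells and 34.9 to 35.0 in DMSO cells. The ACTB 3′ minus 5′ signal, which reflects RNA or target length, was 1.62 ± 0.07 in teriflunomide cells and 1.36 ± 0.03 in DMSO cells (log2 mean ± SD, n = 3 each). The same signal for GAPDH was 0.063 ± 0.021 in teriflunomide cells and 0.049 ± 0.006 in DMSO cells. The part of these differences in the results was not tested. In bulk RNA, fewer cells of a kind and less RNA per cell cannot be told apart.

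With teriflunomide, ASNS, GOT1 and PYCR1 rose, ALDH18A1 fell slightly, and PRODH, GOT2 and the brightest GLUL probe set did not pass the test. ASNS was 9.97-fold higher, GOT1 2.85-fold and PYCR1 1.73-fold, and ALDH18A1 was 1.18-fold lower. Thus 3 of the 7 genes were higher and 1 lower at an adjusted p under 0.05, where 29.7% of all 11998 tested genes were higher and 28.9% lower. The median log2 fold change was 0.05 over the 7 genes and 0.0015 over all tested genes. ASNS and GOT1 were the 2 members past a 2-fold rise, which 5.24% of all genes reached, and no member fell 2-fold, as 4.53% of all genes did. Each gene is given here by its probe set with the highest mean, tested with limma on the whole table and adjusted by the Benjamini-Hochberg method. For these 4 genes no teriflunomide array overlapped a DMSO array, 3 genes lying above and 1 below, against 33.9% of all genes above and 33.1% below.

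**Figure D1:**
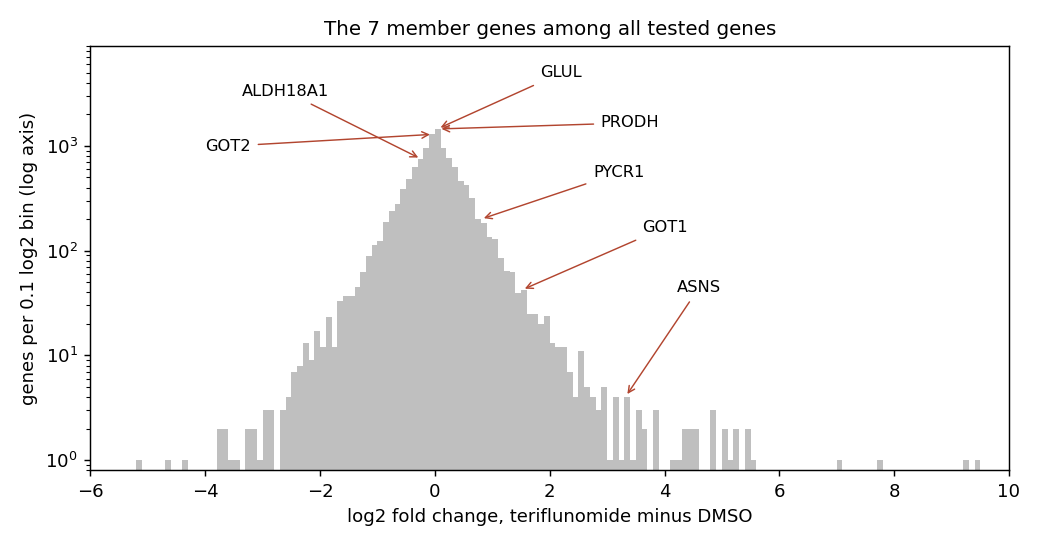
Distribution of log2 fold changes (teriflunomide minus DMSO, x axis) over the 11998 tested genes, as genes per bin on a log y axis, with arrows at the 7 member genes. ASNS lies far out in the right tail at 3.32 and GOT1 at 1.51, while PRODH, GOT2 and GLUL lie at the peak.

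ASNS, which makes asparagine, had the largest change of the 7 genes. Its bright probe set 205047_s_at read 15.19, 15.08 and 15.10 in teriflunomide cells and 11.77, 11.76 and 11.89 in DMSO cells (log2 intensity). Every teriflunomide array lay more than 3 log2 units above every DMSO array, while arrays of 1 group differed by little more than 0.1. ASNS was higher by 3.32 on the log2 scale (SE 0.05, limma adjusted p = 6.97e-06), and 0.292% of all tested genes rose more. The other ASNS probe set, 241082_at, was close to the lowest value of the arrays, with 3.11, 2.77 and 2.73 in teriflunomide cells and 2.42, 2.71 and 2.71 in DMSO cells, groups that only just stood apart. Its difference of 0.26 did not pass (SE 0.14, limma adjusted p = 0.178 over probe sets), and it became 0 once values under log2 5 were raised to 5. Where plain-suffix probe sets are preferred, this dim one stands for ASNS, which ends the call (log2 fold change 0.26, limma adjusted p = 0.159). As the mean of both probe sets, ASNS rose by 1.79.

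GOT1, the cytosolic aspartate aminotransferase, read 11.51, 11.51 and 11.37 in teriflunomide cells and 9.95, 10.02 and 9.89 in DMSO cells on its only probe set. The groups were well apart, with GOT1 higher by 1.51 on the log2 scale (SE 0.06, limma adjusted p = 3.65e-05), with 2.08% of all tested genes rising more. Its mitochondrial counterpart GOT2 read 11.43, 11.55 and 11.53 in teriflunomide cells and 11.45, 11.57 and 11.57 in DMSO cells. The GOT2 groups overlapped almost completely. The difference was -0.02 (SE 0.06, 95% interval -0.16 to 0.11, limma adjusted p = 0.734), so a change of GOT2 as large as that of GOT1 lies outside the interval.

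The isozymes were then compared within arrays. On each array the GOT1 value was set against the GOT2 value, and this difference averaged -0.04 ± 0.12 in teriflunomide cells and -1.58 ± 0.09 in DMSO cells (log2 mean ± SD, n = 3 each). The shift of 1.53 was larger than the spread in either group, with an exact permutation p of 0.1, which is the smallest that 3 arrays against 3 can give (two-sided, adjusted p = 0.1 over 4 pairs). The absolute difference has no meaning, since probe sets differ in brightness for the same amount of RNA, and only its shift is read.

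Proline enzymes did not move together. PYCR1, which reduces pyrroline-5-carboxylate to proline as the last step of synthesis, read 10.46, 10.45 and 10.54 in teriflunomide cells and 9.65, 9.67 and 9.74 in DMSO cells. All teriflunomide arrays were higher, and PYCR1 rose by 0.79 on the log2 scale (SE 0.04, limma adjusted p = 7.96e-05), a rise exceeded by 8.03% of all tested genes. ALDH18A1, which catalyses the entry of glutamate into proline and ornithine synthesis, read 11.27, 11.27 and 11.31 in teriflunomide cells and 11.46, 11.59 and 11.49 in DMSO cells on 222416_at. Here every teriflunomide array was lower. The change was -0.23 on the log2 scale (SE 0.04, limma adjusted p = 0.00620), and a larger fall was seen in 27.8% of all tested genes.

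The second ALDH18A1 probe set, 217791_s_at, read 9.51, 9.57 and 9.54 in teriflunomide cells and 9.80, 9.86 and 9.83 in DMSO cells. It fell by nearly the same amount, with a log2 fold change of -0.29 (SE 0.03, limma adjusted p = 0.00161 over probe sets), and its groups did not overlap either. PRODH, the first enzyme of proline breakdown, was dim. It read 4.37, 4.17 and 4.17 in teriflunomide cells and 4.16, 4.05 and 4.36 in DMSO cells, so the groups overlapped. The difference was 0.05 (SE 0.10, 95% interval -0.20 to 0.30, limma adjusted p = 0.680), and with so dim a signal a change of PRODH may not be measurable on this probe set.

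Comparisons within arrays were also made against PRODH and against ALDH4A1, the mitochondrial dehydrogenase that completes proline breakdown, with a mean of 3.31 in teriflunomide cells and 3.23 in DMSO cells. Both were too dim to serve. The shifts were 0.74 for PYCR1 against PRODH and -0.32 for ALDH18A1 against ALDH4A1 (exact permutation p = 0.1 each). Once values under log2 5 were raised to 5, they were 0.79 and -0.23, which are the changes of PYCR1 and ALDH18A1 alone, so they compare nothing with proline breakdown.

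**Figure D2:**
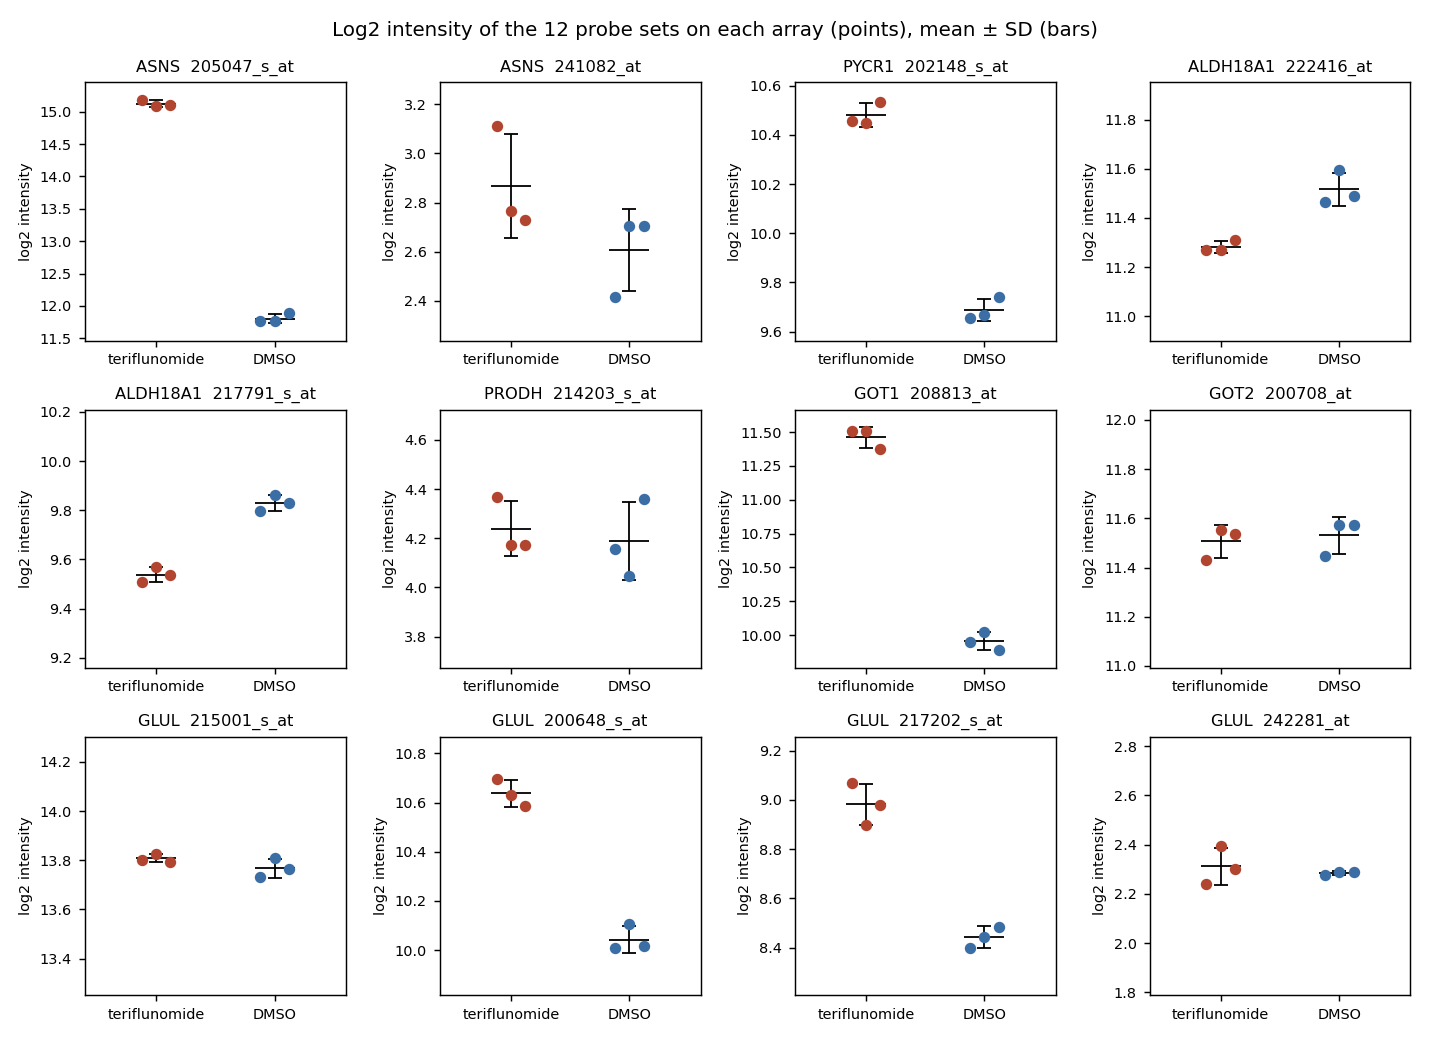
Log2 intensity (y axis, a separate range in each panel) of the 12 member probe sets on the 3 teriflunomide and 3 DMSO arrays, with points for arrays and bars for mean ± SD. The groups stand apart for both ASNS probe sets (by little on the dim 241082_at), PYCR1, GOT1, both ALDH18A1 probe sets and GLUL 200648_s_at and 217202_s_at, and overlap for PRODH, GOT2 and GLUL 215001_s_at.

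GLUL, which makes glutamine, gave different answers on its probe sets. The brightest, 215001_s_at, read 13.80, 13.83 and 13.79 in teriflunomide cells and 13.73, 13.81 and 13.76 in DMSO cells. Its groups overlapped, and the difference of 0.04 did not pass (SE 0.03, 95% interval -0.04 to 0.12, limma adjusted p = 0.331). In contrast, 200648_s_at read 10.70, 10.63 and 10.59 in teriflunomide cells and 10.01, 10.10 and 10.02 in DMSO cells, a rise of 0.59 (SE 0.05, limma adjusted p = 0.000420 over probe sets). Likewise 217202_s_at read 9.07, 8.90 and 8.98 in teriflunomide cells and 8.40, 8.44 and 8.49 in DMSO cells, a rise of 0.54 (SE 0.05, limma adjusted p = 0.000947 over probe sets). On both of these, every teriflunomide array was above every DMSO array.

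The fourth GLUL probe set, 242281_at, was below the filter on low values, between 2.24 and 2.39 in teriflunomide cells and between 2.28 and 2.29 in DMSO cells. With the mean of the 4 probe sets standing for the gene, GLUL rose by 0.30 (limma adjusted p = 0.000451), so whether GLUL is called depends on which probe sets stand for it. The reason the probe sets differ was not tested. Set against the brightest GLUL probe set on each array, ASNS, which uses glutamine, shifted up by 3.28 (1.32 ± 0.06 in teriflunomide cells and -1.96 ± 0.09 in DMSO cells, exact permutation p = 0.1).

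Counted by probe set, 11 of the 12 passed the filter, 5 of them were higher and 2 lower, where 23.7% of all 27290 tested probe sets were higher and 25.2% lower. No member gene had probe sets called in opposite directions. The probe sets of ALDH18A1 agreed, those of GLUL split into called and not called, and the dim one of ASNS did not pass.

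**Figure D3:**
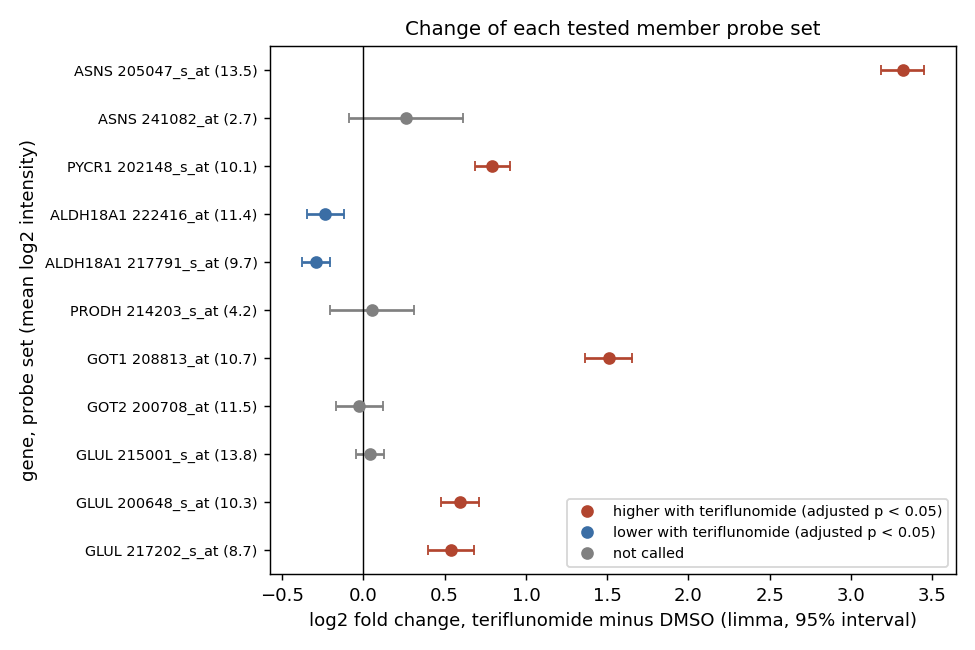
Log2 fold change (teriflunomide minus DMSO, x axis) with its 95% limma interval for the 11 tested member probe sets, each labelled with its mean log2 intensity over the 6 arrays. ASNS 205047_s_at stands at 3.32, GOT1 at 1.51 and PYCR1 at 0.79, the 2 ALDH18A1 probe sets lie below 0, and the GLUL probe sets lie at 0.04, 0.54 and 0.59.

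ATF4, the transcription factor known to drive ASNS, rose at the RNA level, with 14.22, 14.24 and 14.15 in teriflunomide cells and 13.07, 13.06 and 13.17 in DMSO cells (log2 fold change 1.10, SE 0.05, limma adjusted p = 4.91e-05). The genes whose profile over the 6 arrays lay nearest to that of ASNS, by Euclidean distance after subtracting the DMSO mean of each gene, were ESRP1 (distance 0.27 log2 units), SESN2 (0.32), PTGFR (0.32), PRSS23 (0.33) and DDIT4 (0.40). ESRP1 is a splicing regulator, SESN2 a stress-inducible sestrin, PTGFR a prostaglandin receptor, PRSS23 a serine protease and DDIT4 an inhibitor of mTORC1 signalling. Such nearness mainly reflects a rise of like size, from 3.19 for PTGFR to 3.54 for DDIT4. PTGFR was next to the lowest value in DMSO cells, with a mean of 2.44, and ESRP1 was dim there at 4.24, so the size of their rise and their place here depend on the background. Once values under log2 5 were raised to 5, PTGFR rose by 0.63 and ESRP1 by 2.63. Among the members, GOT1 was the nearest to ASNS, at a distance of 3.14, followed by PYCR1 at 4.38.

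The surrounding pathways were read through 5 lists of 39 further genes, of which 35 had a probe set of their own and 26 passed the filter. Of those 26, the test called 7 higher and 9 lower (8 once values under log2 5 were raised to 5), and the median change was 0.0011 (log2), where 29.7% of all genes were higher and 28.9% lower. PSAT1, ASL, ASS1 and KYAT1 were the 4 that rose at least 2-fold, and SLC25A12 was the 1 that fell as far. Of all tested genes, 5.24% rose and 4.53% fell by that much. Each list below holds only 3 to 7 tested genes, so its counts are to be read beside the shares of all genes called. No list was tested as a set. These are descriptions of lists chosen with results of these data known.

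Of 5 tested asparagine and aspartate genes, the test called 3 higher and 1 lower, and the median change was 0.24 (log2). ASL, argininosuccinate lyase, read 10.25, 10.18 and 10.22 in teriflunomide cells and 8.84, 8.85 and 8.77 in DMSO cells, a rise of 1.40 (SE 0.04, limma adjusted p = 2.25e-05). ASS1, which joins aspartate to citrulline in the step before ASL, read 13.48, 13.40 and 13.49 in teriflunomide cells and 12.36, 12.19 and 12.30 in DMSO cells, a rise of 1.17 (SE 0.06). For both genes of arginine synthesis every teriflunomide array lay above every DMSO array, as it did for 33.9% of all tested genes. NIT2, an omega-amidase, rose by 0.24, and the asparaginase ASRGL1 stood at 0.08 without passing. NAT8L, which makes N-acetylaspartate from aspartate, fell by 0.44 on its brighter probe set, and its other probe set fell by 1.19, which gives -0.82 as their mean. That other probe set was dim, with means of 4.62 in teriflunomide cells and 5.81 in DMSO cells. Its change was -0.81 once values under log2 5 were raised to 5.

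Of 5 tested proline and ornithine genes, the test called 3 lower and 0 higher, and the median change was -0.27. PYCR3, 1 of those 3, was close to the lowest value and passed the filter through its DMSO arrays. OAT, ornithine aminotransferase, which links ornithine to the same intermediate that PYCR1 uses, read 12.81, 13.03 and 12.85 in teriflunomide cells and 13.28, 13.55 and 13.36 in DMSO cells. All 3 teriflunomide arrays were lower, a change of -0.50 on the log2 scale (SE 0.09, limma adjusted p = 0.00598). PEPD, which releases proline from dipeptides, fell by 0.27 (SE 0.03). PYCR3, a relative of PYCR1, averaged 2.29 in teriflunomide cells and 2.96 in DMSO cells, a difference of -0.67 that became 0 once values under log2 5 were raised to 5, and whose call was lost with no filter (limma adjusted p = 0.0630). PRODH2 and ALDH4A1 did not pass, at 0.0033 and 0.08. Both were dim as well, PRODH2 with means of 3.65 in teriflunomide cells and 3.64 in DMSO cells. Their differences also became 0 once values under log2 5 were raised to 5. The median of this list therefore rests on dim genes as well as on OAT and PEPD.

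Of 3 tested glutamine and glutamate genes, 2 fell, and the median change was -0.51. Both are genes of GABA breakdown, while GAD1 and GAD2, which make GABA, lay at or close to the lowest value in both groups and were not tested. ABAT, GABA transaminase, read 11.01, 11.18 and 11.07 in teriflunomide cells and 11.62, 11.86 and 11.61 in DMSO cells (log2 fold change -0.61, SE 0.09). ALDH5A1, succinic semialdehyde dehydrogenase, changed by -0.51 (SE 0.04). As means of all their probe sets, dim ones included, ABAT changed by -0.41 and ALDH5A1 by -0.27. GLUD1, the glutamate dehydrogenase, stood at -0.04 (SE 0.04, limma adjusted p = 0.405) without passing.

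Of 7 tested further aminotransferases, the test called 3 higher and 1 lower, and the median change was 0.14. PSAT1, the phosphoserine aminotransferase of serine synthesis, read 13.71, 13.79 and 13.78 in teriflunomide cells and 11.51, 11.64 and 11.49 in DMSO cells, a rise of 2.21 (SE 0.05, limma adjusted p = 1.75e-05). Its dimmer probe set rose by 2.61. KYAT1, which acts on glutamine and kynurenine, rose by 1.14 (SE 0.06) on its bright probe set, while a dim one at 0.17 did not pass, and the mean of its 3 probe sets rose by 0.43. BCAT1, the cytosolic branched-chain aminotransferase, rose by 0.45 and on its 3 other probe sets by 0.45, 0.49 and 0.81, whereas the mitochondrial BCAT2 stood at 0.14 (SE 0.08, limma adjusted p = 0.198) and did not pass. The difference between BCAT1 and BCAT2 was not tested. AADAT, a mitochondrial aminotransferase of lysine and kynurenine, changed by -0.42 (SE 0.05).

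Of 6 genes listed with the malate-aspartate shuttle, in whose cycle GOT1 and GOT2 also act, the test called 1 higher and 2 lower. The median change was -0.05. The list included SLC25A22, a mitochondrial glutamate carrier that is not part of the cycle, at 0.17 without passing (limma adjusted p = 0.0722). SLC25A12, a mitochondrial aspartate-glutamate carrier, had the largest fall of the 26 genes. Its brighter probe set read 6.23, 6.54 and 6.31 in teriflunomide cells and 8.11, 8.27 and 8.24 in DMSO cells, a log2 fold change of -1.85 (SE 0.09, limma adjusted p = 7.36e-05). Its second probe set changed by -1.99, so both placed every teriflunomide array well below every DMSO array. The other aspartate-glutamate carrier, SLC25A13, stood at -0.11 (SE 0.04, limma adjusted p = 0.0761) on its brightest probe set and did not pass. SLC25A13 did pass under 3 of 16 alternative settings, at adjusted p = 0.0334 or above by limma. Its dimmer probe sets went the other way, at 0.09 and 0.15, and did not pass either.

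MDH1, the cytosolic malate dehydrogenase, changed by -0.22 (SE 0.04). SLC25A11, the oxoglutarate carrier, rose by 0.17 (SE 0.05, limma adjusted p = 0.0387), a call lost under 6 of 16 alternative settings. In the fit over probe sets, this probe set did not pass (limma adjusted p = 0.0502). The other SLC25A11 probe set rose by 0.30 (SE 0.06, limma adjusted p = 0.0117 over probe sets). MDH2, the mitochondrial malate dehydrogenase, stood at -0.0011 on its bright probe set and changed by -0.87 (SE 0.08, limma adjusted p = 0.000567 over probe sets) on a dimmer one. MDH2 was singled out after its values were seen, and so were the genes of these lists that the naming rule did not pick.

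**Figure D4:**
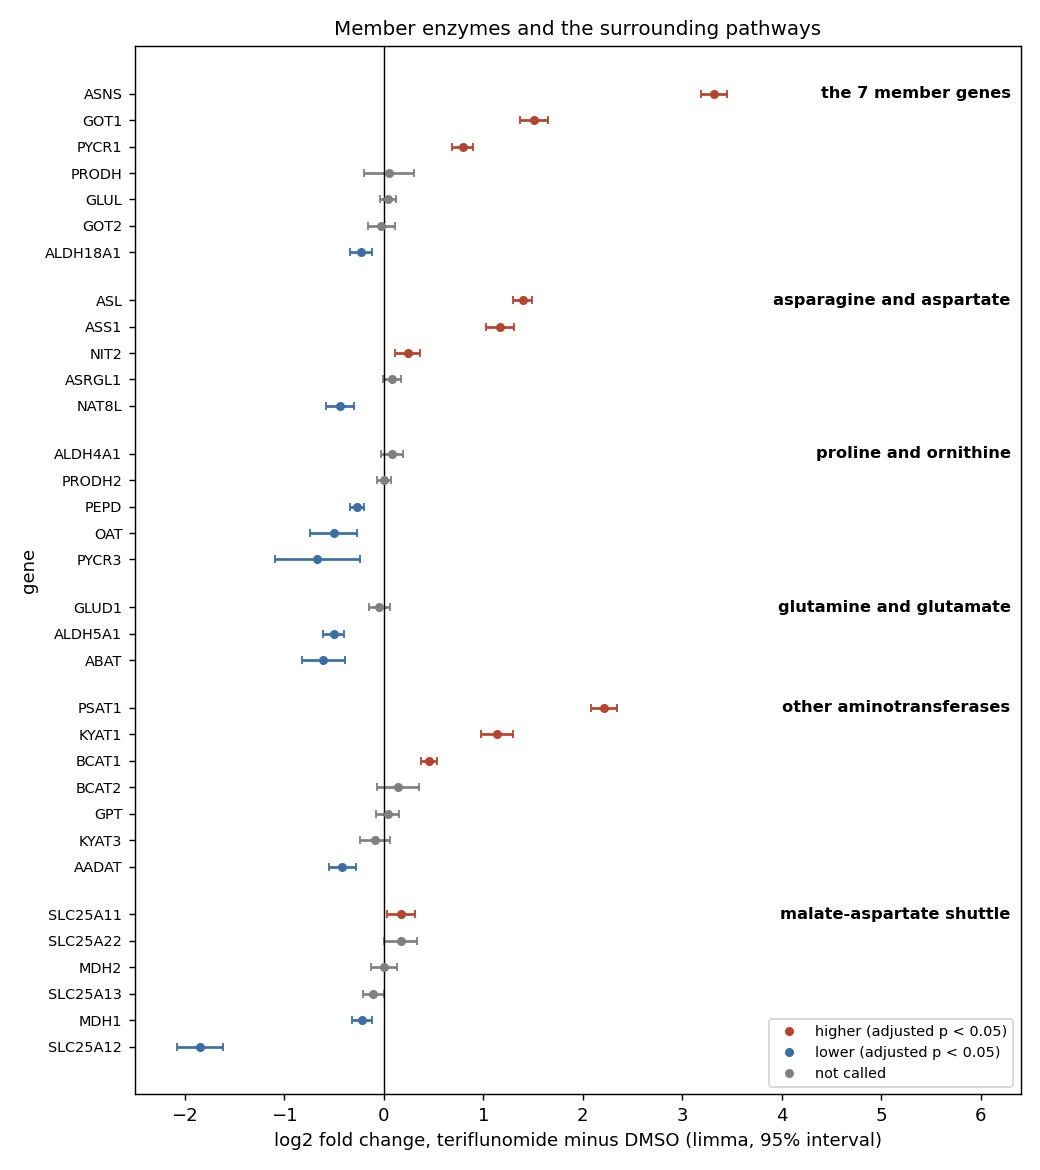
Log2 fold change (teriflunomide minus DMSO, x axis) with its 95% limma interval for the 7 member genes and the 26 tested genes of the 5 surrounding lists, 1 probe set per gene. ASNS at 3.32, PSAT1 at 2.21 and GOT1 at 1.51 lie farthest right and SLC25A12 at -1.85 farthest left.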

How the data were processed

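The deposited values are log2 intensities, 1 per probe set and array (Affymetrix target labelled with biotin, per the labels), made with GCRMA per the submitters' processing notes (version and settings not given in the sources used). Names came from the platform annotation, which gave 1 gene symbol for 41097 of 54675 probe sets, several for 1801 and none for 11777. The 62 control probe sets were not tested. The filter required a value at or above the array median on 3 or more of the 6 arrays, which 27290 probe sets met, and 11998 genes were each represented by their brightest probe set. Limma 3.58.1 (R 4.3.3; lmFit and eBayes, no covariates) compared teriflunomide with DMSO, two-sided, once over genes and once over probe sets, with Benjamini-Hochberg adjustment over all of either and a threshold of 0.05. The fit was tested on simulated data. Shifts between enzymes were tested by exact permutation over the arrays; a further planned pair is not reported here. Promoters were searched in Python 3.11.15.

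The members and lists were chosen with earlier results of these data known. The naming rule took the members, ATF4, the 5 genes most like ASNS and, per list, the 2 largest rises and falls past the threshold. Alternatives covered the filter, scaling, a raised floor, the probe set rule, eBayes, weighting of arrays, a block for the replicate number, and leaving out each array.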

Additional observations from a re-analysis of the deposited data

How the results depend on the processing

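ASNS, GOT1, PYCR1 and ALDH18A1 kept their direction and their call under the 16 alternatives, except ASNS with a plain suffix preferred (0.26, limma adjusted p = 0.159). Apart from that, GOT1 ranged from 1.48 to 1.55, PYCR1 from 0.77 to 0.82 and ALDH18A1 from -0.26 to -0.19. GLUL passed only with the mean of its probe sets (0.30). Members called higher numbered 2 with a plain suffix preferred, 4 with the mean of probe sets and 3 otherwise, and 1 was called lower each time. Over the surrounding lists, 6 to 7 genes were called higher and 8 to 10 lower. With 1 array left out, the shifts ranged from 1.47 to 1.59 (GOT1 minus GOT2) and 3.23 to 3.32 (ASNS minus GLUL). The size of the second shift depends on the brightest probe set of either gene. ASNS changed by 0.26 with a plain suffix preferred, and GLUL by 0.30 with the mean of its probe sets. Values that changed sign belonged to genes not called in the report. MDH2 stood at 0.0134 with centred arrays and 0.0043 with quantile normalization, SLC25A13 at 0.044 with the mean of probe sets and ASRGL1 at -0.060 with a plain suffix preferred. With 1 array left out, MDH2 ranged from -0.049 to 0.036, PRODH from -0.018 to 0.138, GOT2 from -0.067 to 0.014, GPT from -0.0050 to 0.063 and PRODH2 from -0.013 to 0.018. The cause was not tested. With the replicate number as a block, 3 members were higher and 1 lower, and 7 listed genes were higher and 9 lower; SLC25A11 lost its call (limma adjusted p = 0.0748) and BCAT2 gained one (0.0430). The labels do not say that equal numbers pair arrays, so the numbers were not taken as pairs. Over all tested genes, same-numbered arrays did not deviate together (r = 0.04, 0.10 and -0.09), which does not show this for single genes. SLC25A13 gained a call with trended and robust eBayes (0.0469), array weights (0.0454) and without teriflunomide replicate 3 (0.0334). MDH2 was called lower under 2 of 16 alternatives, reaching -0.87 (lowest limma adjusted p = 0.000391), so its call depends on the probe set. SLC25A22 gained a call under 1 of 15 (limma adjusted p = 0.0373). PRODH and PYCR3 are too dim for a firm statement.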
